A study of Mus musculus with 6 samples.

Results

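The genes described here are 10 CC chemokine genes, *Ccl2*, *Ccl7*, *Ccl12*, *Ccl3*, *Ccl4*, *Ccl5*, *Ccl6*, *Ccl9*, *Ccl24* and *Ccl25*, taken by symbol from the 23282 rows of the count files, in which all 10 were listed. They were measured in liver sinusoidal endothelial cells (LSECs), the fenestrated endothelium of the liver sinusoids, with 3 TXNIP-/- and 3 WT libraries. TXNIP-/- mice lack the thioredoxin-interacting protein gene *Txnip* in the whole body on a C57BL/6J background, and the WT controls were C57BL/6J mice. No other allele is described for either genotype, and no treatment for the sequenced libraries. LSECs were drawn from a density fraction that they share with Kupffer cells, the resident macrophages of the liver, by magnetic beads against CD146. The study describes culture of selected LSECs in endothelial growth medium, but the sources used here do not say whether the sequenced RNA was taken before or after it, how old these mice were or how many contributed to a library. The 10 genes were picked with their difference between the genotypes known, some higher and some lower in TXNIP-/- LSECs, so these differences are given as a description and without a test.

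CC chemokines are small secreted proteins with a pair of adjacent cysteines near their start. They bind G protein-coupled receptors on leukocytes and are held on heparan sulfate at the endothelial surface, where they direct cells out of the blood. In the liver, the monocyte attractant *Ccl2* is made by endothelium, stellate cells and macrophages, whereas several other members are typical products of myeloid cells or lymphocytes. QuantSeq reads come from the polyadenylated end of a transcript, so counts do not scale with transcript length and levels are set beside each other between genes without a correction for it.

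Counts summed to between 9147764 and 10193952 per library. Levels are CPM, that is, counts scaled to a common library size with edgeR's TMM factors, given as mean ± SD with n = 3 libraries per genotype, and 3 counts, taken as the floor of detection, equalled 0.286 to 0.335 CPM. *Txnip* was counted 269, 216 and 191 times in TXNIP-/- against 1901, 2019 and 1994 times in WT LSECs, which matched all 6 labels. The most alike libraries were WT replicates 1 and 2, with a chi-square on the counts of 3.93 per degree of freedom between them, and this value was 37 and 40.2 to WT replicate 3, which lay nearer to the TXNIP-/- libraries (13.3 to 17.1). The row of the ribosomal RNA precursor *Rn45s* held 10% and 9.68% of the counts in WT replicates 1 and 2 and 16.8% to 18.6% in the other libraries. Whether each library came from a separate mouse is not stated, so the errors measure only the spread between libraries.

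In WT LSECs the members covered a wide range of levels. *Ccl2* stood at 780 ± 40.1 CPM, followed by *Ccl6* at 67.4 ± 3.99 CPM, and these ranges overlapped with no other member. *Ccl7* (13.7 ± 2.1 CPM), *Ccl9* (11.4 ± 1.5 CPM), *Ccl25* (9.23 ± 1.88 CPM) and *Ccl3* (5.13 ± 2.1 CPM) came next, and each overlapped its neighbour in this order. *Ccl5* (2.91 ± 0.209 CPM) lay below every *Ccl3* value and overlapped *Ccl4* (1.94 ± 1.2 CPM), while *Ccl24* had 0.382 ± 0.503 CPM and *Ccl12* had no count. In TXNIP-/- LSECs *Ccl2* again came first at 1448 ± 19.6 CPM, and *Ccl7* (30.5 ± 7.58 CPM) now overlapped *Ccl6* (39.0 ± 3.05 CPM). The plot of levels by library shows that *Ccl2* and *Ccl7* were higher and *Ccl6*, *Ccl9* and *Ccl5* lower in all TXNIP-/- libraries than in any WT library.

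**Figure D1:**
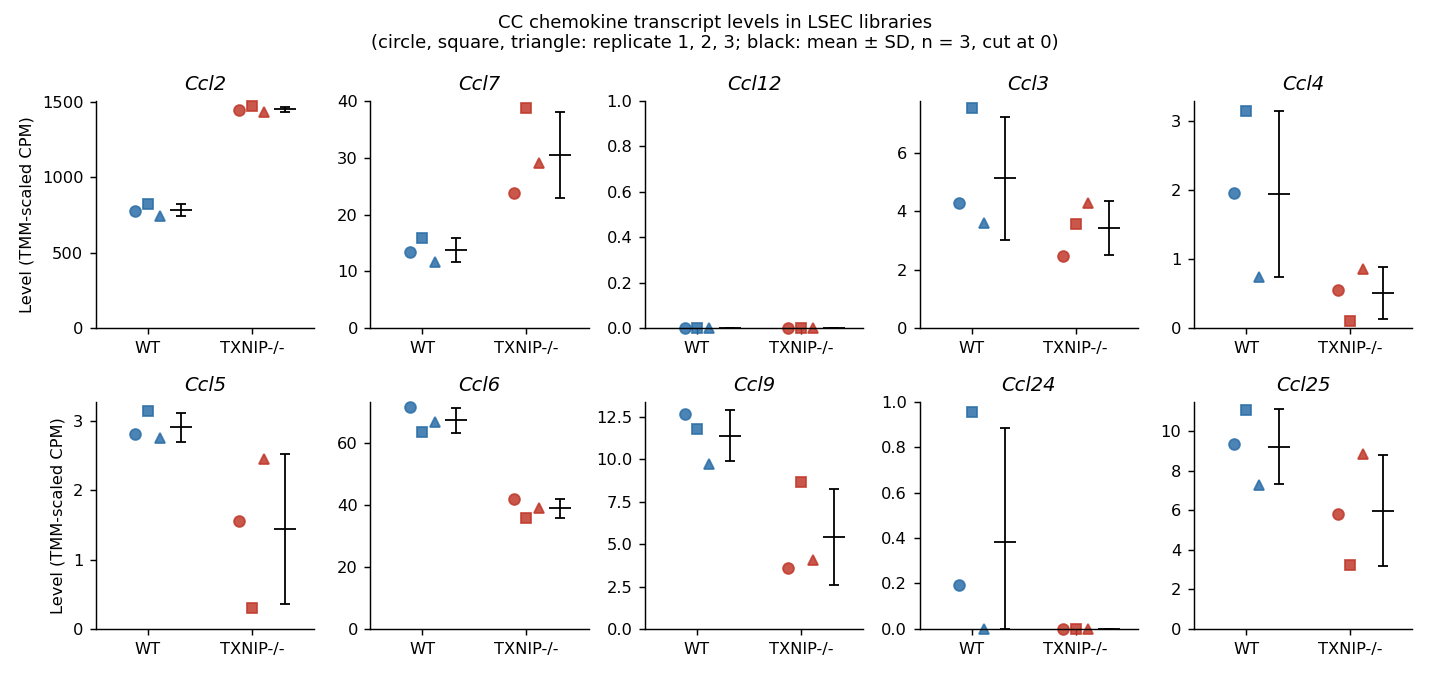
Levels of the 10 CC chemokine genes in the 6 LSEC libraries, in TMM-scaled CPM on linear axes that start at 0 and differ between genes (points: libraries of each genotype, black marks: mean ± SD, n = 3). *Ccl2* and *Ccl7* lie higher in all 3 TXNIP-/- libraries, *Ccl6*, *Ccl9* and *Ccl5* lie lower, and *Ccl12* is at 0 throughout.

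Of the 10 members, 7 passed edgeR's filter on low counts and entered the fit of 11583 rows. *Ccl4*, *Ccl12* and *Ccl24* did not. A gene was called where its adjusted p was under 0.05 in edgeR's quasi-likelihood test and its fold change above 1.3. *Ccl2* and *Ccl7* were among the genes called higher, which were 0.509% of all tested rows (59 rows), and *Ccl6* was among those called lower, which were 0.932% (108 rows). Without normalization factors these totals were 35 and 145 rows. No overlap between the genotypes, TXNIP-/- above, was seen for 2 of the 7 and for 8.43% of all tested rows, and TXNIP-/- below for 3 of the 7 and for 8.94% of all rows. Because the members were picked on this contrast, nothing is read from these counts. The median log2 fold change of the 7 was -0.63, against 0 for all tested rows, and covers 2 higher and 5 lower genes. Without WT replicate 3 the log2 fold changes were 0.86 for *Ccl2*, 1.06 for *Ccl7*, -0.8 for *Ccl6* and -1.16 for *Ccl9*.

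*Ccl2*, *Ccl7* and *Ccl12* encode ligands of the receptor CCR2, which draws inflammatory monocytes out of the bone marrow and into tissue. *Ccl2* (chromosome 11 of GRCm38, 82035571 to 82037453, plus strand, 3 exons) stood at 1443, 1469 and 1431 CPM in TXNIP-/- replicates 1 to 3 and at 774, 823 and 743 CPM in WT replicates 1 to 3. Every TXNIP-/- library thus stood well above every WT library, with a log2 fold change of 0.89 (standard error 0.07), or 1.86-fold. The libraries of each genotype lay close together, with a coefficient of variation of 1.35% in TXNIP-/- and 5.14% in WT LSECs, where counting error alone gives 0.858% and 1.13%. *Ccl7* (82045712 to 82047525, 3 exons), the next gene on the plus strand, reached 23.8, 38.7 and 29.1 CPM in TXNIP-/- against 13.4, 15.9 and 11.7 CPM in WT LSECs. The genotypes did not overlap for *Ccl7* either, but TXNIP-/- replicate 2 was the highest library by a clear margin. Its log2 fold change was 1.16 (standard error 0.21), and it was 0.95 and no longer called without that replicate. The ratio of *Ccl2* to *Ccl7* counts was 49.3 ± 11.4 in TXNIP-/- and 57.5 ± 5.8 in WT LSECs, with overlapping ranges. *Ccl12* (82101845 to 82103400, 3 exons), the third of these genes on the same strand, had 0 counts in all 6 libraries, which allows a level of at most the floor given above.

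*Ccl6* and *Ccl9* encode ligands of the receptor CCR1 that are found in mice and are known as abundant products of macrophages and other myeloid cells. *Ccl6* (chromosome 11, 83587882 to 83593087, minus strand, up to 4 exons) measured 42, 35.9 and 39 CPM in TXNIP-/- against 71.6, 63.7 and 66.7 CPM in WT LSECs. All TXNIP-/- libraries lay below all WT libraries, with a log2 fold change of -0.79 (standard error 0.13), 1.73-fold lower. *Ccl9* (83572919 to 83578636, minus strand, up to 4 exons) measured 3.57, 8.66 and 4.06 CPM in TXNIP-/- against 12.7, 11.8 and 9.73 CPM in WT LSECs. Here TXNIP-/- replicate 2 came near to the lowest WT library and the other TXNIP-/- libraries lay far below it. The log2 fold change of *Ccl9* was -1.06 (standard error 0.34) and the gene was not called, whereas without TXNIP-/- replicate 2 it was -1.57 and called. With its 32 to 85 counts, *Ccl9* varied by 51.7% between TXNIP-/- libraries, where counting error gives 13.9%.

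*Ccl6* and *Ccl9* lie side by side on the minus strand, and both had lower mean levels in TXNIP-/- LSECs. They are shown because, among the 5 members with a sequence window around the start, their windows resembled each other over the longest stretch. Whether these genes share a control was not tested. The RefSeq table of GRCm38.p6 gave the 250 bases before and 50 after the start for 5 of the 10 members, *Ccl3*, *Ccl6*, *Ccl9*, *Ccl12* and *Ccl25*. *Ccl2*, *Ccl7*, *Ccl4*, *Ccl5* and *Ccl24* had no entry. The best local alignment of the *Ccl6* and *Ccl9* windows covered 74 columns with 79.7% identity, from base -59 to 14 of *Ccl6* and from base -18 to 48 of *Ccl9*, counted from the first transcribed base as 0. Those of the other 9 pairs covered 9 to 21 columns. For *Ccl25* only the window of its outer start was aligned, not that of its inner start. The 250 bases upstream are given 5′ to 3′ on the gene's strand (*Ccl6* at chr11:83593088-83593337, *Ccl9* at chr11:83578637-83578886), with capitals for bases that are identical in that alignment.
Ccl6: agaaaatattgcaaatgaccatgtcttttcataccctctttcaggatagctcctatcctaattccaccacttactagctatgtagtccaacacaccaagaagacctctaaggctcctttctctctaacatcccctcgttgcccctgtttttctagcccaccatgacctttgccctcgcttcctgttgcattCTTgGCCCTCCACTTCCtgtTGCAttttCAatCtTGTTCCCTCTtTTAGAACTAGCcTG
Ccl9: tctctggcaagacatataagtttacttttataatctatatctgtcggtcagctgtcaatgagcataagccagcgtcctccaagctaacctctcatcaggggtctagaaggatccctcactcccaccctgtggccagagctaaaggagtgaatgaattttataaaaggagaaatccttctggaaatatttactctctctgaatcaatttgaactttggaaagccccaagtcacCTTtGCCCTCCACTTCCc
The aligned stretch crosses the start in both genes and begins further upstream in *Ccl6*. In *Ccl9* most of it, up to base 48, lies after the start. The *Ccl9* bases printed here therefore hold only the small part from base -18 on. Of 6 motifs searched on both strands, the *Ccl6* window held none. The *Ccl9* window held TGANTCA, the AP-1 letters, at base -53, which 7.81% of all 32851 windows hold, and TATAAA at base -92 and, on the other strand, at bases -94 and -224, which 13.6% hold. *Ccl12* and the inner start of *Ccl25* held TATAAA at bases -31 and -16, and the *Ccl3* window held no motif. The NF-kB consensus in a strict form and in a form with 1 more free position, which includes the strict one, the C/EBP-like letters TTGCNNAA and the PU.1-like letters GAGGAAGT were in none of the members' windows, and in 0.411%, 1.47%, 10.8% and 3.2% of all windows.

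*Ccl3*, *Ccl4* and *Ccl5* encode chemokines that attract monocytes, natural killer cells and T cells. Their levels were low in both genotypes. *Ccl3* (chromosome 11, 83647844 to 83649355, minus strand) was counted 22, 35 and 40 times in TXNIP-/- against 44, 79 and 34 times in WT LSECs. Its log2 fold change was -0.58 (standard error 0.45). The genotypes overlapped, and WT replicate 2 alone lay apart at the top. With a term for WT replicates 1 and 2 in the fit, the log2 fold change of *Ccl3* was -0.07 (standard error 0.64). *Ccl5* (83525778 to 83530518, minus strand) had 14, 3 and 23 counts against 29, 33 and 26, so the WT libraries were alike and the TXNIP-/- libraries spread widely below them. Its log2 fold change was -1.01 (standard error 0.69), which ranged from -1.64 to -0.53 as single libraries were omitted. *Ccl4* (83662584 to 83664683, plus strand) was counted 5, 1 and 8 times in TXNIP-/- against 20, 33 and 7 times in WT LSECs. The sums were 14 and 60 counts, and WT replicate 3 fell inside the TXNIP-/- range. Neither *Ccl3* nor *Ccl5* was called.

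*Ccl24* and *Ccl25* lie outside chromosome 11. *Ccl24* (chromosome 5, 135569937 to 135573049, minus strand), which encodes an eosinophil attractant that binds CCR3, had 0 counts in all TXNIP-/- libraries against 2, 10 and 0 counts in WT LSECs. Only WT replicate 2 was above the floor of 3 counts, so a difference was not detectable at this depth. *Ccl25* (chromosome 8, 4325210 to 4360020, plus strand, up to 8 exons), a ligand of CCR9 best known from thymus and small intestine, was counted 52, 32 and 83 times in TXNIP-/- against 96, 116 and 69 times in WT LSECs. TXNIP-/- replicate 3 reached into the WT range. The log2 fold change was -0.63 (standard error 0.35) and not called, and single libraries moved it between -1.03 and -0.33 when omitted.

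Within a library, ratios between members need no scaling between libraries. *Ccl2* made up 94.4% ± 0.336 of the counts of the 10 members in TXNIP-/- LSECs and 87.4% ± 0.477 in WT LSECs. The summed level of the 10 was 1520 to 1560 CPM in TXNIP-/- and 846 to 940 CPM in WT libraries, nearly all of it *Ccl2*. Among the counts of the other 9 members, *Ccl7* had a share of 35.1% ± 6.79 in TXNIP-/- and 12.2% ± 1.2 in WT LSECs, and *Ccl6* of 45.4% ± 6.62 and 60.3% ± 5.46. The *Ccl6* shares came close at their ends, with 52.7% in TXNIP-/- replicate 1 and 54.3% in WT replicate 2, while those of *Ccl7* lay far apart. Counts of *Ccl2* and *Ccl7* together were 26.6 ± 2.33 times those of the members with lower levels (*Ccl3*, *Ccl4*, *Ccl5*, *Ccl6*, *Ccl9*, *Ccl24* and *Ccl25*) in TXNIP-/- LSECs and 8.08 ± 0.372 times in WT LSECs. This direction follows from how the genes were grouped.

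**Figure D2:**
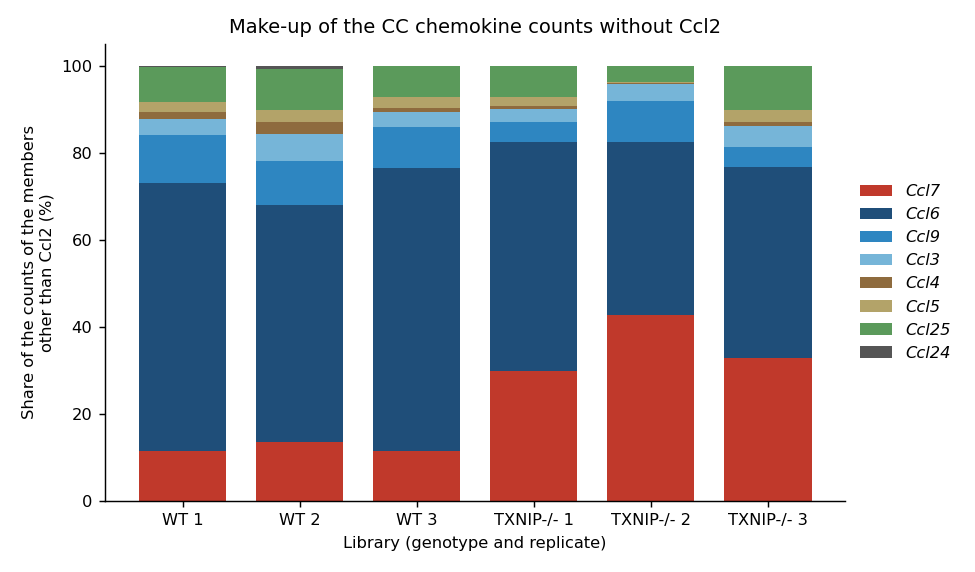
Share of each member in the counts of the members other than *Ccl2*, in percent, for each of the 6 libraries (1 bar per library, *Ccl12* has no count and is not drawn). *Ccl7* takes 29.8% to 42.8% in the TXNIP-/- libraries and 11.4% to 13.6% in the WT libraries, and *Ccl6* is the largest part in every library but TXNIP-/- replicate 2.

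Because Kupffer cells share the density fraction of LSECs, markers of macrophages were set beside the members. This list and those that follow were chosen with earlier results of these data known. Of 15 Kupffer cell and macrophage markers, 14 passed the filter, all 14 were lower in TXNIP-/- LSECs (log2 fold change -2.07 to -0.75), and 12 were called, against the 0.932% of all tested rows given above. Their summed level was 328 to 361 CPM in TXNIP-/- and 804 to 838 CPM in WT libraries. The smallest p values belonged to the scavenger receptors *Cd163* (log2 fold change -2.07, adjusted p = 5.48e-07, edgeR) and *Marco* and the protease *Ctss* (-1.75, adjusted p = 1.7e-06). *Marco*, the most abundant of the markers, fell from 175 ± 3.86 to 83.2 ± 7.12 CPM (log2 fold change -1.07, adjusted p = 5.23e-06, edgeR), *Cd5l* fell from 131 ± 6.69 to 65.7 ± 2.03 CPM (-0.99, adjusted p = 1.55e-05) and *Vsig4*, a complement receptor, fell from 76.4 ± 7.85 to 27.4 ± 4.71 CPM (-1.48, adjusted p = 1.18e-05). *Clec4f*, which defines Kupffer cells, had 35, 95 and 74 counts against 125, 155 and 197 and was not called (log2 fold change -1.14, adjusted p = 0.0917, edgeR). *Timd4* had at most 12 counts in any library. In bulk samples, fewer cells of a type and less RNA per cell cannot be told apart. The part of these markers in the lower levels of *Ccl6*, *Ccl9* and the other members was not tested.

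The log2 fold change of *Ccl6*, -0.79, lay inside the range of the macrophage markers, near its upper end, where *Cd68* had -0.75. Its level was at 53.3% to 62.3% of the WT mean in the TXNIP-/- libraries, and the summed markers were at 39.7% to 43.7%. Per 100 marker counts there were 12.6, 11 and 10.8 *Ccl6* counts in TXNIP-/- against 8.55, 7.92 and 7.99 in WT LSECs. This ratio was higher in every TXNIP-/- library. For *Ccl9* the ratio was 1.62 ± 0.893 in TXNIP-/- and 1.38 ± 0.188 in WT LSECs, and for *Ccl3* it was 1.0 ± 0.236 and 0.626 ± 0.271, with overlapping ranges for both. *Ccl2* and *Ccl7* were higher where these markers were lower. Both were picked with their higher levels in TXNIP-/- LSECs known, so nothing is read from this.

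**Figure D3:**
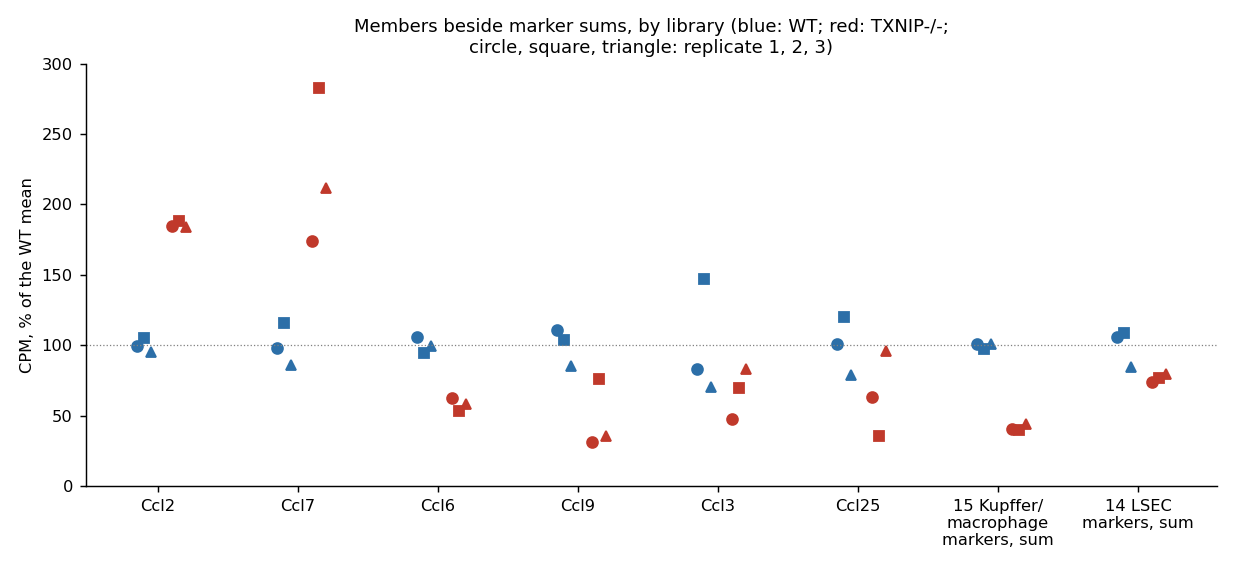
CPM in each library as a percentage of the WT mean (y axis) for 6 members and for the summed levels of 15 Kupffer cell and macrophage markers and of 14 LSEC markers (blue: WT, red: TXNIP-/-). In TXNIP-/- libraries *Ccl6* sits at 53.3% to 62.3%, between the macrophage markers (39.7% to 43.7%) and the LSEC markers (73.6% to 79.3%), while *Ccl2* sits at 184% to 188%.

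The label of sinusoidal endothelium was checked in the same way. All 14 LSEC markers passed the filter, and the most abundant, *Lyve1*, *Cdh5* and *Pecam1*, had 2927 ± 1228, 1101 ± 103 and 934 ± 142 CPM in WT and 1698 ± 255, 1069 ± 87.7 and 885 ± 62.8 CPM in TXNIP-/- LSECs. The lowest of the 14, *Clec4g* and *Gpr182*, had only 8.4 ± 1.03 and 17.4 ± 4.24 CPM in WT and 7.64 ± 1.5 and 9.8 ± 3.7 CPM in TXNIP-/- LSECs. All 14 were lower in TXNIP-/- LSECs (log2 fold changes -0.83 to -0.04), and 2 were called, against 0.932% of all tested rows. These were the mannose receptor *Mrc1* (log2 fold change -0.76, adjusted p = 0.000718, edgeR), which macrophages also express, and *Stab1* (-0.46, adjusted p = 0.00984), while *Stab2* had an adjusted p of 0.0448 (edgeR) and a fold change under 1.3. Without WT replicate 3, in which *Lyve1* was at 1520 CPM against 3482 and 3780 CPM in the other WT libraries, 5 LSEC markers were called, and 1 was called without TXNIP-/- replicate 2. With 26.8, 26.2 and 24.7 *Ccl2* counts per 100 LSEC marker counts in TXNIP-/- against 9.98, 10.3 and 12 in WT LSECs, *Ccl2* was also higher relative to these markers. The summed markers were themselves lower, at 73.6% to 79.3% of the WT mean in TXNIP-/- libraries, and *Lyve1* was their largest part. This widens the difference in the ratio. No T cell, B cell or natural killer cell marker passed the filter, and 10 of these 14 markers had 0 counts in all libraries. None of the neutrophil markers passed it either. Monocyte markers were low, with no count of *Ly6c2* in any library and *Plac8* at 10.4 ± 1.6 and 4.68 ± 1.52 CPM in TXNIP-/- and WT LSECs (log2 fold change 1.15, adjusted p = 0.101, edgeR) and *Fn1* at 4.96 ± 1.69 and 2.41 ± 1.42 CPM (1.04, adjusted p = 0.484). Summed dendritic cell markers were at 7.03 to 17.8 and 8.66 to 15.8 CPM, hepatocyte markers at 35.5 to 51.0 and 35.8 to 37.7 CPM, stellate cell markers at 47.7 to 63.4 and 37.0 to 45.5 CPM and cholangiocyte markers at 2.99 to 6.25 and 1.85 to 6.13 CPM in TXNIP-/- and WT libraries, respectively. Most of the dendritic cell sum was the single gene *Zbtb46*, with 10.9 ± 4.07 and 8.52 ± 3.18 CPM in TXNIP-/- and WT LSECs. Of the markers in these lists that passed the filter, *Zbtb46* and *H2-Ab1* (dendritic cells), *Alb*, *Apoa1*, *Ttr* and *Fgb* (hepatocytes), *Ecm1*, *Pdgfrb*, *Des*, *Col1a1*, *Col3a1* and *Reln* (stellate cells) and *Sox9* (cholangiocytes) were not called. The stellate cell gene *Dcn* rose from 15.4 ± 1.55 to 30.6 ± 2.66 CPM (log2 fold change 0.99, adjusted p = 0.00497, edgeR). *Ccl2* is also a product of stellate cells, and the part of these markers in its level was not tested.

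Apart from *Ccl27a*, the rest of the CC chemokine family was nearly silent in these cells. Of 14 other CC chemokine genes, 11 of their 18 rows had no count in any library, since some symbols are listed more than once. Only *Ccl27a* and *Ccl27b* passed the filter, genes with near-identical copies whose reads the counting of multiple alignments can share, and so their values are uncertain. *Ccl27a*, a ligand of CCR10, measured 23.6 ± 1.98 and 28.4 ± 1.86 CPM in TXNIP-/- and WT LSECs (log2 fold change -0.27, adjusted p = 0.576, edgeR), and *Ccl27b* had 1.26 ± 0.648 and 1.5 ± 0.698 CPM. *Ccr2*, the receptor for *Ccl2* and *Ccl7*, had no count in any library, nor had *Ccr3*. *Ccr1* had 1 count in TXNIP-/- replicate 1 alone. Above the filter was *Ccr9*, the receptor for *Ccl25*, with 2.09 ± 0.786 and 2.12 ± 0.864 CPM in TXNIP-/- and WT LSECs (log2 fold change -0.02, adjusted p = 0.994, edgeR). *Ccrl2*, which binds the leukocyte attractant chemerin, had 3.34 ± 0.654 and 2.84 ± 0.348 CPM (log2 fold change 0.23, adjusted p = 0.914). Among the atypical receptors, which take up chemokines without signalling through G proteins, *Ackr2*, the scavenger of inflammatory CC chemokines, had 3.19 ± 0.831 and 4.33 ± 1.0 CPM (log2 fold change -0.44, adjusted p = 0.804), and *Ackr3* had 1.51 ± 1.71 and 0.98 ± 0.407 CPM (0.63, adjusted p = 0.886). None of these 6 genes was called by edgeR or DESeq2, and 0 of them had an unadjusted p under 0.05 in edgeR.

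Of 14 genes for heparan sulfate synthesis and its core proteins, on which chemokines are presented, all passed the filter, 9 were higher and 5 lower, none was called by edgeR or DESeq2, and 1 had an unadjusted p under 0.05 in edgeR, as had 1336 of all 11583 tested rows. The smallest p belonged to the syndecan gene *Sdc4*, with 26.8 ± 4.46 and 18.5 ± 4.67 CPM in TXNIP-/- and WT LSECs (log2 fold change 0.53, adjusted p = 0.305, edgeR), followed by *Gpc1* and *Sdc2* (1.04 and 1.01, adjusted p = 0.564 and 0.701). NF-kB is a transcription factor known to induce *Ccl2* in endothelium. Of 14 genes for its subunits and inducible regulators, 13 were higher in TXNIP-/- LSECs, 9 of them without overlap (8.43% of all tested rows), and 2 were called (0.509% of all tested rows), with a median log2 fold change of 0.37 against 0 for all tested rows. *Tnip1*, an inhibitor of the pathway, rose from 214 ± 30.4 to 309 ± 2.68 CPM (log2 fold change 0.53, adjusted p = 0.00796, edgeR), and *Nfkb2*, a subunit, rose from 82.8 ± 1.2 to 115 ± 9.12 CPM (0.47, adjusted p = 0.0237). *Nfkbia*, the feedback inhibitor, went from 1077 ± 78.0 to 1383 ± 72.1 CPM with an adjusted p of 0.0212 (edgeR), short of a 1.3-fold change. The number called here was 0 in the fits without TXNIP-/- replicate 1, WT replicate 1 or WT replicate 2. This list too was chosen with earlier results of these data known, so its counts are given as a description. The part of these NF-kB genes in the level of *Ccl2* was not tested.

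**Figure D4:**
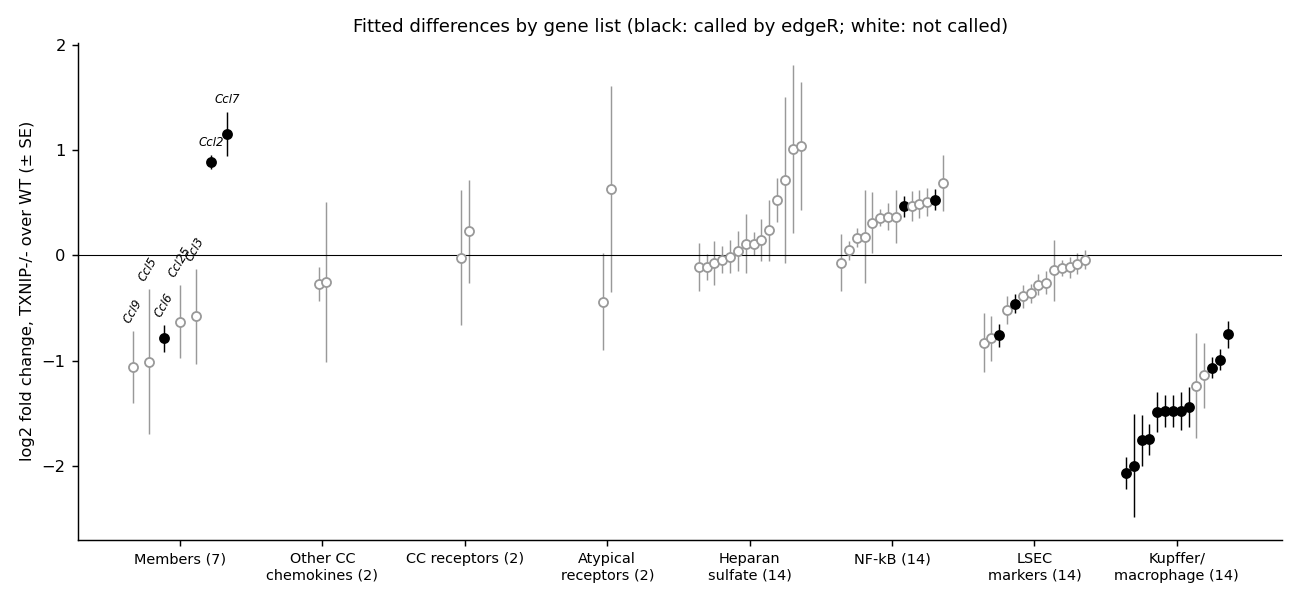
Fitted log2 fold changes of TXNIP-/- over WT LSECs with standard errors for the tested genes of 8 lists (1 point per gene, black: called by edgeR, white: not called). The members split into *Ccl2* and *Ccl7* above 0 and 5 genes below, all 14 macrophage markers lie between -2.07 and -0.75, and 13 of 14 NF-kB genes lie above 0.

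The members on chromosome 11 fall into 2 groups. *Ccl2*, *Ccl7* and *Ccl12* span 67.8 kb, and *Ccl5*, *Ccl9*, *Ccl6*, *Ccl3* and *Ccl4* span 138.9 kb, with 1422.4 kb between them. The detected members of the first group were those with higher levels in TXNIP-/- LSECs, and all detected members of the second group had lower mean levels. Within 250 kb of the first group no other gene passed the filter, *Ccl11* and *Ccl1* had no count and *Ccl8* had 2 counts in WT replicate 1 alone. Among the genes around the second group that passed it, *Ap2b1*, *Taf15* and *Heatr6* had log2 fold changes from 0.01 to 0.22, *AA465934*, with at most 32 counts, had -0.64 (standard error 0.77), and none of them was called. *Wfdc17* (83703991 to 83706268, plus strand), a macrophage-expressed gene beyond *Ccl4*, was counted 172, 158 and 154 times in TXNIP-/- against 440, 386 and 388 times in WT LSECs and fell by 1.22 on the log2 scale (standard error 0.16, adjusted p = 0.000284, edgeR). The neighbours were listed after the count files had been opened.

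**Figure D5:**
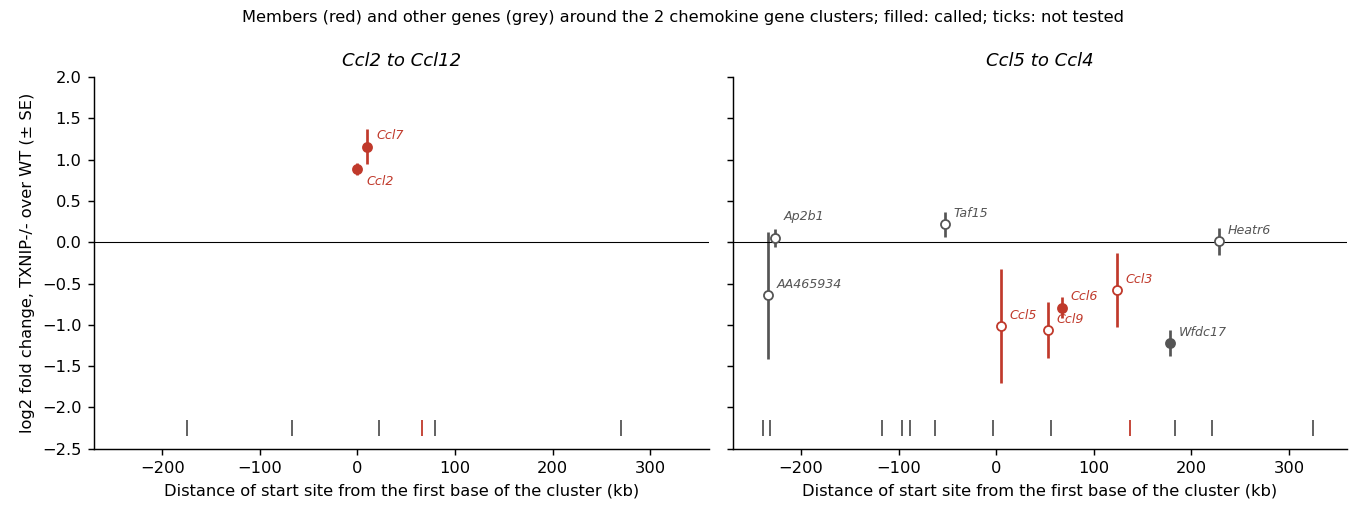
Log2 fold change of TXNIP-/- over WT LSECs with standard error (y axis) against the distance of each start site from the first base of the cluster in kb (x axis), for the *Ccl2* to *Ccl12* genes (left) and the *Ccl5* to *Ccl4* genes (right). Red marks members, grey the other genes described here, filled points called genes and ticks genes that were not tested. *Ccl2* and *Ccl7* lie above 0, the tested members on the right lie below it together with *Wfdc17* at -1.22, and *Ap2b1*, *Taf15* and *Heatr6* lie near 0.

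Since reads with several alignments were counted, the last 500 bases of each member's transcripts were compared with all transcripts of GENCODE M21. No other gene matched over at least 75 bases with more than 95% identity, and *Ccl2*, *Ccl7*, *Ccl3*, *Ccl4* and *Ccl5* had no match of that length at all. The closest match of *Ccl6* had 82.6% identity over 86 bases and that of *Ccl9* 88.1% over 243 bases. No exon of another gene, on either strand, overlapped the last 500 bases of any member.

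Genes with the most similar profile over the 6 libraries were found by the root mean square difference of their centred log2 CPM. Nearest to *Ccl2* were the laminin gene *Lamb1* (0.065), *Psg22* (0.07) and the thrombospondin gene *Thbs1* (0.087), against a median of 0.51 over all tested rows. *Thbs1* had 113 ± 12.8 CPM in TXNIP-/- and 59.3 ± 3.17 CPM in WT LSECs, and *Psg22*, of the pregnancy-specific glycoprotein family, had 114 ± 3.65 and 63.1 ± 5.35 CPM, while *Lamb1* was lower with 13.5 ± 0.744 and 7.2 ± 0.534 CPM. *Psg22* belongs to a family of close copies, so its reads are uncertain. Nearest to *Ccl6* were *Bok* (0.085), *Brca2* (0.086) and *Limch1* (0.094), against a median of 0.46, all at 5.13 to 16.9 CPM in either genotype. *Psg22* and *Thbs1* were called (adjusted p = 0.000163 and 0.000108, edgeR). *Lamb1*, *Bok*, *Brca2* and *Limch1* were not (adjusted p = 0.0902, 0.283, 0.199 and 0.0707, edgeR). *Ccl2* and *Ccl6* were picked on the genotype contrast, so genes near them share that difference.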

How the data were processed

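LSEC RNA was sequenced as QuantSeq 3′ mRNA-Seq libraries. The authors mapped single-end reads with Bowtie2 and used bedtools to tally both unique and multiple alignments. The deposited counts are whole numbers under gene symbols and were not normalized. The submitters' notes name the build mm10; versions, annotation and strand use are not given in the sources used here. Floors cover counting error only.

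Members and gene lists were chosen with earlier results of these data known. edgeR 4.0.16 (R 4.3.3) was run on all 23282 rows, 44 of which repeat a symbol, with filterByExpr, TMM factors, genotype as the single term, the quasi-likelihood test and Benjamini-Hochberg adjustment over 11583 tested rows. CPM use the TMM-scaled totals of these rows. Standard errors are the log2 fold change divided by the root of F. The steps were tested on simulated data. Named genes were all members, all tested CC chemokines and receptors, the 3 genes of smallest p and, for markers, the 3 of highest level in the other lists, and the 3 nearest profiles of *Ccl2* and *Ccl6* (log2 CPM, prior count 2). *Clec4f*, *Timd4*, *Ly6c2*, *Clec4g*, *Gpr182*, some stellate cell markers and the neighbouring genes were named after their values were seen.

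Gene positions came from GENCODE M21 (GRCm38) and promoters from RefSeq (GRCm38.p6). Transcript ends were compared with blastn 2.17.0 and promoters with local alignment in Biopython 1.88. Alternatives were DESeq2 1.42.0, limma-trend (limma 3.58.1), other factors and filters, the replicate block, no *Rn45s* row and each library left out. A further alternative was a term for WT replicates 1 and 2, which sets the TXNIP-/- libraries against WT replicate 3 alone. The labels do not say whether the replicate numbers pair libraries, and the main fit did not pair them. Values of some genes are not reported here.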

Additional observations from a re-analysis of the deposited data

How the results depend on the processing

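The log2 fold changes of the 7 tested members kept their direction in all 16 alternatives. They lay between 0.81 and 0.96 for *Ccl2*, 0.95 and 1.38 for *Ccl7*, -0.87 and -0.73 for *Ccl6*, -1.57 and -0.83 for *Ccl9*, -0.78 and -0.07 for *Ccl3*, -1.64 and -0.53 for *Ccl5* and -1.03 and -0.29 for *Ccl25*. Of 112 such values, 4 moved by more than the spread between libraries. *Ccl2* went to 0.81 without normalization factors. *Ccl2* and *Ccl3* went to 0.96 and -0.07 with the term for WT replicates 1 and 2, that is, against WT replicate 3 alone. The values 1.38 for *Ccl7*, -0.83 for *Ccl9* and -0.29 for *Ccl25* came from the same fit. *Ccl9* lay between -1.57 (without TXNIP-/- replicate 2) and -0.84 with each library left out. With each library left out, 1 to 2 members were called higher and 1 to 2 lower. *Ccl7* lost its call and *Ccl9* gained one without TXNIP-/- replicate 2, and 2 members were called lower with no filter, where *Ccl9* was added.

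Across all rows, 99 genes were called higher with DESeq2, 35 without normalization factors, 106 with no filter (and 195 lower) and 96 with the term for WT replicates 1 and 2, and with each library left out 29 to 110 were called higher and 60 to 191 lower, the most without WT replicate 3 and the fewest without WT replicate 1, with totals also changed by over 1.5 times without WT replicate 2 and without TXNIP-/- replicates 1 and 2. Called NF-kB genes numbered 4 with DESeq2 and with no filter, 1 without normalization factors and with that term, and 0 to 3 with each library left out. Called LSEC markers numbered 4 with DESeq2 and without normalization factors, 5 with no filter and 1 to 5 with each library left out. Among markers of other cell types, 2 were called higher with DESeq2 and with no filter, in place of 1. Called macrophage markers numbered 11 to 13 throughout. The cause of these changes was not tested.

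With the replicate block, 68 genes were called lower, 1 NF-kB gene higher and 1 LSEC marker lower, and the called members were the same 3. Same-numbered libraries deviated from their genotype means with correlations of -0.0296, 0.0167 and -0.0469. The labels do not say whether the numbers pair libraries, and these correlations, from 3 libraries per genotype, cannot exclude it. Depth limits *Ccl4*, *Ccl12* and *Ccl24*, and *Ccl3* and *Ccl5* at under 80 counts per library.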
